A study of Homo sapiens with 9 samples.

Results

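SF3B4 and PRPF8 were profiled in the same tubes, so the binding of both spliceosomal proteins could be set side by side intron by intron. The unit described is an intron with an SF3B4 peak within 100 nt of its 3′ splice site, a PRPF8 peak within 100 nt of its 5′ splice site, or both. Introns were those of 1 transcript per protein-coding gene (GENCODE release 44, GRCh38), 190149 in all. In each sample, introns of genes with any listed peak of either protein were eligible, which gave 105278, 109064 and 111313 introns. The 6 libraries compared are among 54 in the series.

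The data came from antibody-barcode eCLIP (ABC), in which antibodies carrying DNA barcodes pull down UV-crosslinked protein-RNA complexes, and the barcode ligated to each RNA fragment names the protein. The 3 samples used here, called samples 1, 2 and 3, were each a pool of 10 barcoded antibodies (DDX3, EIF3G, FAM120A, IGF2BP2, LIN28B, PRPF8, PUM2, RBFOX2, SF3B4 and ZC3H11A) on UV-crosslinked K562 cells, an established human myelogenous leukemia line with no transgene or deletion named. The labels give no treatment for samples 1 and 2 and none as the treatment of sample 3, whose cell line field reads K563 under a K562 title. Since SF3B4 and PRPF8 came from 1 pool per sample, every comparison was paired by sample. Pools of the same antibodies in HEK293T, an embryonic kidney line, served only as a second setting, and their cell line field reads K562 under HEK293T titles.

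SF3B4 is a subunit of the SF3b part of the U2 small nuclear ribonucleoprotein (snRNP), which holds the branch point region a short way upstream of the 3′ splice site when the spliceosome forms. PRPF8 is the central scaffold of the U5 snRNP and lies close to the 5′ splice site and the catalytic RNA core. A CLIP peak shows where the protein was crosslinked in the cell population. It does not show that both proteins sat on the same RNA molecule.

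In these data a peak counted as enriched when its P value over the external background was below 0.001 and its fold above 8. SF3B4 had 10711, 16577 and 13215 enriched peaks and PRPF8 had 37651, 33636 and 40912. Reads in listed peaks numbered from 185953 to 483899 for SF3B4 and from 509073 to 743293 for PRPF8, while library totals were not used here. In introns with both peaks the median SF3B4 peak held 6, 8 and 4 reads in samples 1, 2 and 3 and the median PRPF8 peak 11, 11 and 13, so the SF3B4 marks rest on fewer reads, and a peak that is not listed may have been missed at this depth. Read numbers of sample 2 were worked back from the folds as the smallest whole numbers that fit, so they are lower limits.

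Splice site sequences of 6 introns are shown first, as examples from the lists of highest fold described later. They are not typical introns of their classes. TFRC intron 13 and SNRNP70 intron 7 had both peaks in all 3 samples. RPL4 intron 3 and MYL6 intron 6 had SF3B4 at the 3′ splice site in all 3 samples and no listed PRPF8 peak of any strength at the 5′ splice site. GATA1 intron 5 and HMGN1 intron 1 showed the reverse. Each 5′ window holds 6 exonic and 24 intronic bases of GRCh38, 5′ to 3′ on the gene's strand, with the 3 exonic and 6 intronic positions of the 5′ splice site consensus in capitals. Each 3′ window holds the last 27 intronic and the first 3 exonic bases, with the terminal AG in capitals.
TFRC intron 13 5′ splice site, chr3:196062558-196062587, minus strand: ttcTTGGTAAGTatccctttcattagctgt
TFRC intron 13 3′ splice site, chr3:196060245-196060274, minus strand: ggcaatgataaaacaatttattttcAGgta
SNRNP70 intron 7 5′ splice site, chr19:49101466-49101495, plus strand: tgcACTGTGAGTacctcccgccgagccctg
SNRNP70 intron 7 3′ splice site, chr19:49104607-49104636, plus strand: ccctccccctccccacatctgttacAGccg
RPL4 intron 3 5′ splice site, chr15:66503034-66503063, minus strand: ggaAACGTATCCtttgtttcactacctaag
RPL4 intron 3 3′ splice site, chr15:66502748-66502777, minus strand: aaatgtgattcttgactggaaaaatAGatg
MYL6 intron 6 5′ splice site, chr12:56160665-56160694, plus strand: gggCGGGTACGGctcctcccagcctctcct
MYL6 intron 6 3′ splice site, chr12:56161360-56161389, plus strand: ggctcatcccacctttcctttccacAGagc
GATA1 intron 5 5′ splice site, chrX:48793292-48793321, plus strand: cacCAGGTGACGccctgccccttggagcca
GATA1 intron 5 3′ splice site, chrX:48793766-48793795, plus strand: ggacacccgcagcctcctttttggcAGgtg
HMGN1 intron 1 5′ splice site, chr21:39348879-39348908, minus strand: aggAAGGTGAGCggcggccgcggcccgcac
HMGN1 intron 1 3′ splice site, chr21:39348575-39348604, minus strand: tctattcgtgcgtctccgtctccgcAGgtc

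Among peaks at splice sites, each protein was found mostly at its own end of the intron, which the choice of windows allowed but did not force. Among SF3B4 peaks at either splice site, 77.3%, 87.5% and 87.7% lay at the 3′ splice site in samples 1, 2 and 3. Among PRPF8 peaks the shares were 2.35%, 2.59% and 2.51%. The groups did not overlap, and the difference was 81.7 percentage points ± 5.85 (SD, n = 3 samples). These are shares of the peaks in splice site windows alone. Of all enriched SF3B4 peaks, 31.5%, 44.3% and 48.2% lay in 3′ windows and 9.25%, 6.32% and 6.75% in 5′ windows. Of all enriched PRPF8 peaks, 51.1%, 53.9% and 60.7% lay in 5′ windows. Of all 90 ordered pairs of proteins in the pool, this pair gave the widest difference, and its reverse order the same absolute value. An exact permutation of the protein labels within samples, two-sided, gave p = 2.74e-06 and an adjusted p of 2.47e-05 over the 9 measures tested. A single choice of labels weighs 1.37e-06, and both orders of the pair reach the value, so p could not be lower here. The labels were drawn anew in each sample, although the same antibodies recur in all 3. These p-values thus count repeats of a pair as independent. A pair held fixed across samples has only 90 choices, a test that was not run. An exact sign-flip test over 3 samples cannot go below 0.25 and gave that value.

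PRPF8 peaks lay directly inside the intron and SF3B4 peaks somewhat farther from their splice site. PRPF8 peak centres within the 5′ window had a median of 14, 14 and 11 nt into the intron, with the middle 50% from 8 to 20, 9 to 21 and 6 to 16 nt. SF3B4 peak centres within the 3′ window had a median of -25, -27 and -34 nt, counted back from the intron's end, with the middle 50% from -35 to -16, -38 to -18 and -41 to -27 nt. In sample 3 the SF3B4 peaks lay farthest from the splice site and enriched SF3B4 peaks were also shortest, with a median length of 37 nt against 46 and 50 nt. Few peaks lay at the edge of the window. For introns of 300 nt or longer, 43, 79 and 70 SF3B4 peaks lay from 90 to 100 nt before the 3′ splice site and 46, 74 and 63 lay in the next 10 nt beyond the limit. For PRPF8 the numbers inside the limit were 39, 31 and 41 and those beyond it 26, 43 and 26.

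**Figure D1:**
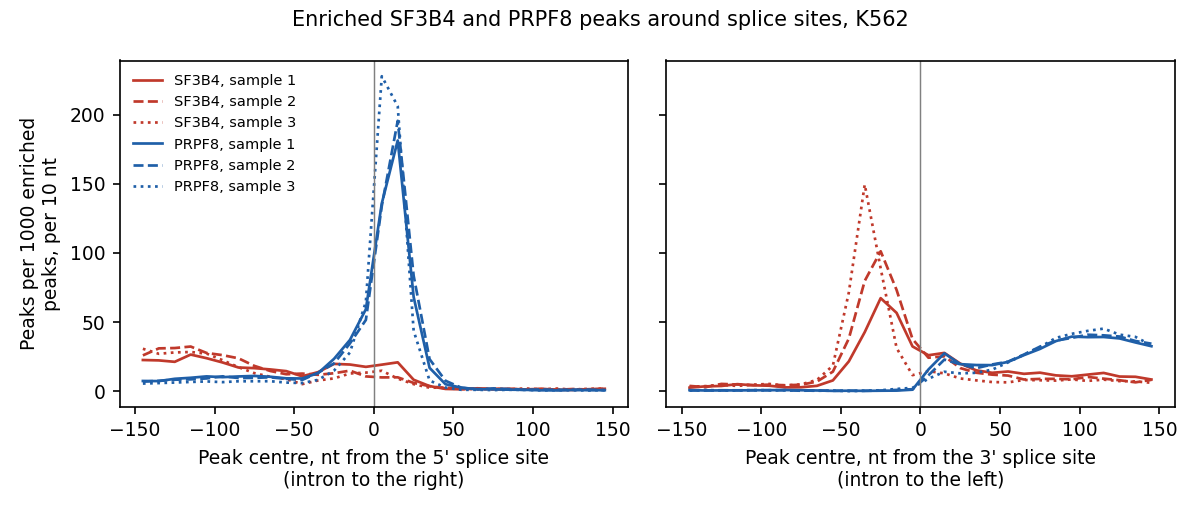
Enriched peaks per 1000 enriched peaks of the library, in bins of 10 nt by the distance of the peak centre from the 5′ splice site (left) and the 3′ splice site (right), for introns of 300 nt or longer. Red lines are SF3B4 and blue lines PRPF8, with a line style per sample, and PRPF8 rises just inside the 5′ end. SF3B4 is highest 20 to 30 nt before the 3′ end in samples 1 and 2 and 30 to 40 nt before it in sample 3.

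SF3B4 also had a smaller set of peaks at 5′ splice sites, in 994, 1040 and 894 introns. Of these introns, 74.6%, 73.6% and 71.4% had a PRPF8 peak at the same 5′ splice site, a mean of 73.2% ± 1.67 (SD, n = 3). PRPF8 peaks at 3′ splice sites were found in 468, 497 and 646 introns, of which 27.1%, 34.6% and 26.8% had an SF3B4 peak at the same 3′ splice site. Peaks of either protein at the end it rarely marked were thus found beside peaks of the other protein above the percentages of all eligible introns given below.

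SF3B4 marked far fewer introns than PRPF8. SF3B4 peaks were found at the 3′ splice site of 3466, 7485 and 6538 introns, which is 3.29%, 6.86% and 5.87% of the eligible introns. Of these, 1046, 30 and 4007 rest on fewer than 5 reads, and with 5 reads or more there were 2420, 7455 and 2531, so that sample 3 lay near sample 1 in place of near sample 2. The 30 of sample 2 may include peaks with more reads, since its read numbers are lower limits. PRPF8 peaks were found at the 5′ splice site of 19782, 18599 and 25579 introns, or 18.8%, 17.1% and 23%. Both peaks were present in 1557, 3444 and 3230 introns, or 1.48%, 3.16% and 2.90%. An SF3B4 peak alone was left in 1909, 4041 and 3308 introns and a PRPF8 peak alone in 18225, 15155 and 22349.

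Introns with SF3B4 had PRPF8 more often than eligible introns at large. The share of SF3B4 introns with a PRPF8 peak was 44.9%, 46.0% and 49.4%, a mean of 46.8% ± 2.34 (SD, n = 3), against 17.1% to 23% of all eligible introns. Seen from PRPF8, the share with SF3B4 was 7.87%, 18.5% and 12.6%. Its 95% exact binomial intervals were 7.50% to 8.25%, 18% to 19.1% and 12.2% to 13%, so the 3 samples differed by more than counting error. Eligible introns without a PRPF8 peak had SF3B4 in 2.23%, 4.47% and 3.86%. Against the complement control (the other 9 barcodes of the same pool) in place of the external background, the share of SF3B4 introns with PRPF8 was 14.0%, 22.6% and 15.7%, a mean of 17.5% ± 4.55 (SD, n = 3). PRPF8 then marked 6.40%, 9.69% and 7.27% of all eligible introns. In the HEK293T pools SF3B4 marked 6.72% and 4.74% of eligible introns, PRPF8 11.2% and 9.65%, and both 1.29% and 0.923%, and 19.3% and 19.5% of SF3B4 introns had PRPF8.

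SF3B4-marked introns lay in 2162, 3534 and 3450 genes, of which 2021, 3176 and 3220 had a PRPF8-marked intron somewhere. PRPF8-marked introns were found in 6543 of 8736, 5954 of 9146 and 7074 of 9488 eligible genes, or 74.9%, 65.1% and 74.6%. Both marks on 1 intron were found in 1137, 2020 and 2018 genes. To set aside how strongly a gene was covered, the 2 marks were compared within genes by the Mantel-Haenszel odds ratio, which asks whether the 2 peaks fall on the same intron more often than the gene's own numbers of marked introns would give.

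Within genes, the 2 peaks shared an intron more often than the numbers of marked introns in each gene would give. The log2 odds ratio was 0.78, 1.16 and 0.76, a mean of 0.90 ± 0.23 (SD, n = 3), above 0 in all samples. With the SF3B4 window moved to the upstream neighbour, so that both sites flank 1 exon, it was 0.01, 0.09 and 0.07. With the window moved to the next intron downstream it was 0.19, 0.23 and 0.22, and at 2 and 3 introns in either direction it lay between -0.12 and 0.01. The value stood apart at the same intron, with a small remainder at the next one downstream. The within-intron value exceeded that across the exon by 0.85 ± 0.21 (SD, n = 3) when both were computed over introns with an upstream neighbour.

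**Figure D2:**
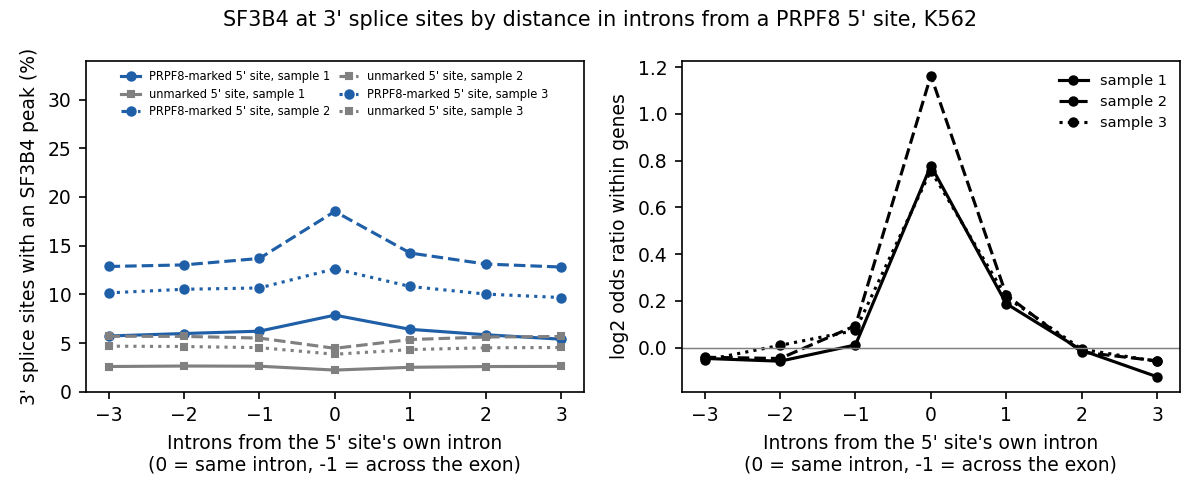
Left, percentage of 3′ splice sites with an SF3B4 peak by the number of introns from a 5′ splice site with a PRPF8 peak (blue) or without one (grey). Right, the log2 odds ratio of the 2 marks within genes, which stands at 0.76 to 1.16 for the same intron, at 0.19 to 0.23 for the next one downstream and between -0.12 and 0.09 elsewhere, with a line style per sample.

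Other protein pairs of the pool gave values as high or higher. The same odds ratio was computed for every ordered pair of the 10 proteins, one at the 3′ and one at the 5′ splice site. Of the 81 pairs with a value in all samples, SF3B4 with PRPF8 ranked 78th from the top. The exact permutation of protein labels, one-sided, gave p = 0.998, and the difference between intron and exon ranked 74th with p = 0.986 (two-sided). The highest value was that of FAM120A at the 3′ with IGF2BP2 at the 5′ splice site (3.14 ± 0.28, SD, n = 3). SF3B4 at the 5′ with PRPF8 at the 3′ splice site, the pair with its ends exchanged, gave 1.62 ± 0.26 on 39, 64 and 47 introns.

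PRPF8 marked far more 5′ splice sites than any other library. All 8 pairs with PRPF8 at the 5′ splice site and a value in every sample had a mean between 0.67 and 1.11. The other 9 libraries had between 51 and 1048 peaks at 5′ splice sites per sample, where PRPF8 had 18124 to 24828. The part of this breadth in the rank was not tested. With equal numbers of the most enriched peaks taken from both libraries, the value for SF3B4 with PRPF8 was 1.10.

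**Figure D3:**
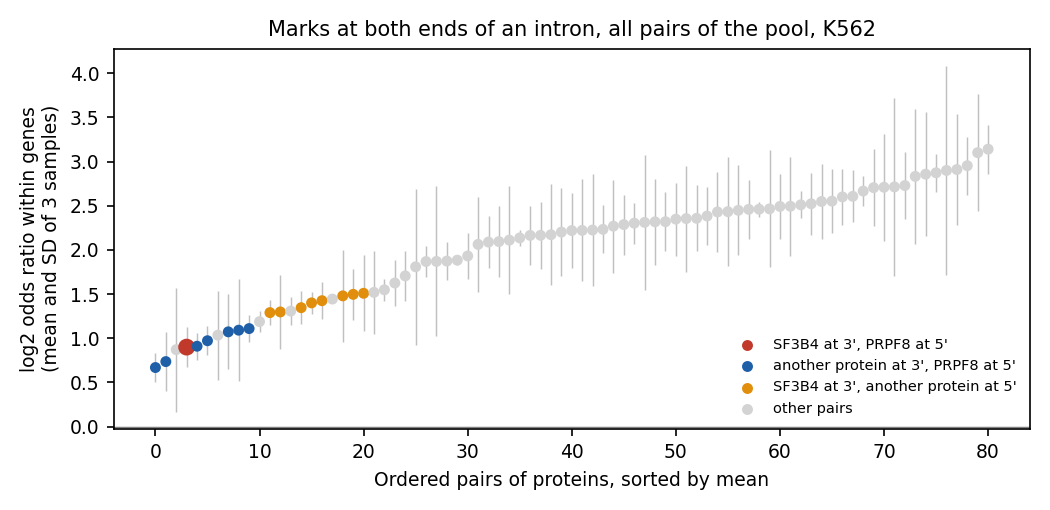
Log2 odds ratio within genes of a peak at the 3′ splice site for one protein and at the 5′ splice site of the same intron for another, mean and SD of 3 samples, for 81 ordered pairs sorted by mean. SF3B4 with PRPF8 (red) stands at 0.90 among the lowest, beside other pairs with PRPF8 at the 5′ splice site (blue), and below SF3B4 with other proteins at the 5′ splice site (orange).

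The share of introns with the second protein rose with the reads of the first. Among introns whose PRPF8 peak held 5 to 7 reads, 4.92%, 11.1% and 6.75% had SF3B4. At 12 to 19 reads the shares were 14.0%, 27% and 16.6%, and at 40 reads or more they were 35.2%, 50.1% and 40.6%. From the other side, introns whose SF3B4 peak held 5 to 7 reads had PRPF8 in 43.5%, 38.8% and 52.6%, and those with 20 to 39 reads in 72.3%, 66.0% and 75%. At 40 reads or more the shares were 64.6%, 72.1% and 77.8% on 48, 122 and 36 introns, lower than the step before in sample 1. In sample 2, whose read numbers are lower limits, 30 introns with SF3B4 peaks of 3 to 4 reads had PRPF8 in 53.3%. Across introns with both peaks, the read numbers of the 2 peaks had a Spearman correlation of 0.29, 0.32 and 0.36 (1557, 3444 and 3230 introns), a description over introns that share libraries and gene expression.

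Peaks of both proteins rarely touched each other outside short introns. In introns under 200 nt, where each window is cut at the middle, 39.0%, 37.7% and 35.2% of introns with both marks had an SF3B4 and a PRPF8 peak that overlapped by at least 1 nt. In longer introns this held for 4 of 1308, 2 of 3070 and 4 of 2847. Without introns under 200 nt, both marks were found in 2408 introns on average and the log2 odds ratio was 0.86.

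Intron length separated the classes little. The median length was 1056, 1483 and 1468 nt for introns with both peaks, 1094, 1389 and 1374 nt for SF3B4 alone, 1466, 1539 and 1401 nt for PRPF8 alone, and 1400, 1428 and 1449 nt for all eligible introns. The difference of the median log2 length, SF3B4-only less PRPF8-only, was -0.20 ± 0.20 (SD, n = 3), with p = 0.887 by the exact label permutation. Very long introns were under-represented in both lists. Of eligible introns over 20 kb, 1.26%, 3.86% and 3.01% had SF3B4 and 13.4%, 10.5% and 14.5% had PRPF8. Over 10 kb, introns made up 3.34%, 6.36% and 6.13% of the class with both peaks against 9.54%, 9.79% and 9.95% of eligible introns.

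The rank of the intron in its gene also separated the 2 single-mark classes little. Among genes with at least 3 introns, first introns were 7.36%, 8.25% and 9.11% of the SF3B4-only class and 8.72%, 7.19% and 7.90% of the PRPF8-only class. The difference changed sign between samples and averaged 0.305 percentage points ± 1.44 (SD, n = 3; p = 0.946, exact label permutation). Last introns were 7.47%, 6.85% and 6.57% of the SF3B4-only class and 7.76%, 7.18% and 7.57% of the PRPF8-only class (p = 0.909, exact label permutation). First introns were long, with a median of 3878, 3856 and 3898 nt, and within the longest quartile of introns they made up 13.6%, 15.6% and 19.6% of SF3B4-only and 16.2%, 13% and 14.7% of PRPF8-only introns, again lower for SF3B4 in sample 1 and higher in samples 2 and 3.

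PRPF8 marking followed the match of the 5′ splice site to its consensus, the 9 positions across the exon-intron junction that can pair with U1 RNA. The consensus read from these introns was CAGGTAAGT. PRPF8 was found at 13.4%, 10.8% and 15.2% of eligible introns with 4 or fewer matching positions, and the share rose at each step to 23.1%, 21.4% and 26.7% of those with all 9. SF3B4 at the other end of the intron was most frequent at the poorest matches, and was found in 5.97%, 10.9% and 9.94% of those with 4 or fewer matches, in 2.96%, 6.63% and 5.35% of those with 7, and in 3.56%, 8.61% and 7.15% of those with 9. The mean number of matches was 6.19, 6.26 and 6.17 in SF3B4-only introns and 6.46, 6.5 and 6.47 in PRPF8-only introns. The difference of -0.27 ± 0.03 (SD, n = 3) had p = 0.0478 by the exact label permutation and an adjusted p of 0.215, and so did not pass over the 9 measures. It passed with P below 1e-05 and fold above 16 (-0.29, adjusted p = 0.00891, exact label permutation), where labels were again drawn anew in each sample.

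The first intronic bases also differed between the classes, without a test. Introns starting with GTAAG made up 22.7%, 25.3% and 22.7% of the SF3B4-only class and 31.4%, 32.8% and 32.3% of the PRPF8-only class, against 27.2%, 27.4% and 27.5% of all eligible introns. At the 3′ end, the pyrimidine content of the last 40 nt was 65.6%, 66.0% and 65.9% in SF3B4-only and 65.7%, 65.5% and 65.5% in PRPF8-only introns (p = 0.966, exact label permutation). The branch-point-like letters TNCTNAC, searched on the sense strand from 27 to 3 nt before the intron's end, were present in 4.98%, 5.17% and 5.41% of SF3B4-only, 4.10%, 3.99% and 4.10% of PRPF8-only and 4.21%, 4.20% and 4.18% of all eligible introns. Intron GC content differed by 1.40 percentage points ± 1.55 (SD, n = 3; p = 0.815, exact label permutation), most of it in sample 1, where SF3B4-only introns held 49.8% and PRPF8-only introns 46.7%.

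U12-type introns, which a separate minor spliceosome removes, had few PRPF8 peaks. They were recognised by a start of GTATCCT or ATATCCT, which 688 introns have. PRPF8 marked 17 of 468, 15 of 488 and 24 of 513 eligible ones, or 3.63%, 3.07% and 4.68%, against 18.8%, 17.1% and 23% of all eligible introns. SF3B4 marked 3.21%, 7.79% and 6.43% of them, near its 3.29%, 6.86% and 5.87% of all. Introns with 4 or fewer matches and no such start had PRPF8 in 16.4%, 13.2% and 18.7% and SF3B4 in 6.65%, 11.5% and 10.9%. The upper 95% exact limits for PRPF8 on U12-type starts were 5.75%, 5.02% and 6.88%, below all of the PRPF8 shares at poor matches without such a start. Both peaks were seen in 2, 5 and 6 of these introns. SF3b proteins are shared by the U2 and U12 snRNPs, and PRPF8 by both spliceosomes.

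**Figure D4:**
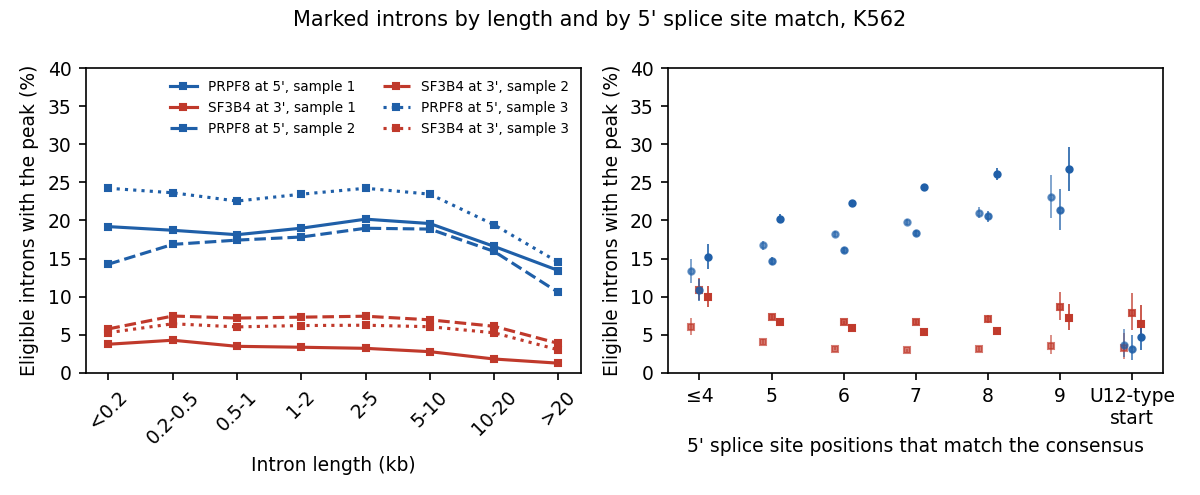
Percentage of eligible introns with PRPF8 at the 5′ splice site (blue) and SF3B4 at the 3′ splice site (red) by intron length (left) and by the number of consensus positions matched (right, with 95% exact binomial intervals, 3 samples side by side). PRPF8 rises with the match and stands at 3.07% to 4.68% for U12-type starts, where SF3B4 stands at 3.21% to 7.79%.

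The same introns were marked again in other samples only in part. SF3B4 marked 11946 introns in at least 1 sample and 1345 in all 3, and PRPF8 marked 36861 and 8502. Both peaks were present in all 3 samples in 511 introns of 430 genes, which is 32.8%, 14.8% and 15.8% of the introns with both in samples 1, 2 and 3. An SF3B4 peak in all 3 samples with no listed PRPF8 peak at the 5′ splice site in any was found in 284 introns, and the reverse in 4922. The 2 numbers do not rest on equal lists. In sample 3, 13215 of 13340 listed SF3B4 peaks were enriched, against 40912 of 63944 for PRPF8, so few weaker SF3B4 peaks were listed there.

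Of the 511 introns, the 10 of highest fold, at most 1 per gene, are described by their values. RPL13A intron 4, in a ribosomal protein gene that hosts small nucleolar RNAs (snoRNAs), ranked first by the lower of its folds, with 184, 516 and 250 SF3B4 reads and 203, 240 and 326 PRPF8 reads. SNRNP70, which encodes the U1-70K protein, had 118, 160 and 49 SF3B4 reads and 83, 63 and 77 PRPF8 reads on intron 7. ADAMTSL4 intron 11, of 99 nt, had 34, 97 and 28 SF3B4 reads and 59, 95 and 107 PRPF8 reads. In all 10 introns the log2 fold over the background was above 7 for both proteins in each sample.

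Of these 10 introns, 4 hold an annotated small RNA and 6 do not. RPL13A intron 4 holds SNORD33, RPS2 intron 6 SNORA10 and EIF4G1 intron 20 SNORD66, and DDX5 intron 11 holds MIR3064 and MIR5047. In RPL13A, RPS2 and EIF4G1, whose introns are 202, 226 and 211 nt long, the SF3B4 peaks were centred 80 to 100 nt before the 3′ splice site, far from the median of all SF3B4 peaks. TNPO2 intron 19 (187 nt) had its SF3B4 peaks at -80, -82 and -74 nt. With windows of 50 nt, 5 of the 10 kept both marks in all samples, and against the other 9 barcodes of the pool 2 of the 10 did. LENG8 intron 15 and WSB1 intron 5, with no small RNA, had 53, 67 and 31 and 44, 239 and 67 SF3B4 reads and 43, 49 and 88 and 41, 47 and 92 PRPF8 reads.

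TFRC, the transferrin receptor gene that is highly expressed in erythroid cells such as K562, had more introns with both peaks in all samples than any other gene. Of its 18 introns, 9 qualified (numbers 1, 6 and 11 to 17), with lengths from 208 to 4920 nt. Over these 9 introns SF3B4 reads ran from 5 to 32, 12 to 91 and 4 to 24 in samples 1, 2 and 3, and PRPF8 reads from 12 to 112, 28 to 134 and 32 to 115. On intron 13 SF3B4 had 32, 91 and 24 reads and PRPF8 39, 85 and 106. Introns 3, 4, 5, 10 and 18 had PRPF8 peaks in at least 1 sample and no SF3B4 peak. Sample 2 was highest for SF3B4 in all 9 introns.

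**Figure D5:**
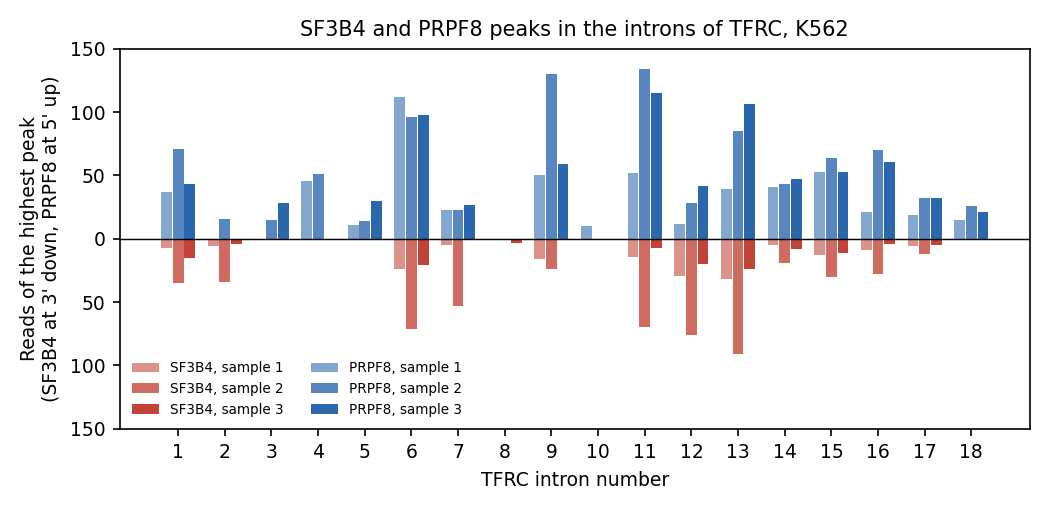
Reads of the highest enriched peak at the 5′ splice site for PRPF8 (blue, upward) and at the 3′ splice site for SF3B4 (red, downward) in each of the 18 introns of TFRC, with 3 bars per protein for the samples. Introns 11 to 17 form a run in which both proteins were found in every sample.

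The other 4 genes with the most such introns had 4 each. They were PICALM, a clathrin adaptor, CTTN, the actin-binding cortactin, ADAMTSL4, an extracellular matrix protein, and HNRNPH1, a splicing regulator that binds G-rich RNA. In CTTN, PRPF8 peaks on the 4 introns held 23 to 36, 13 to 41 and 25 to 44 reads and SF3B4 peaks only 4 to 7, 6 to 21 and 3 to 7. In HNRNPH1 the reads were closer, with 10 to 28, 40 to 63 and 14 to 33 for SF3B4 and 14 to 69, 19 to 104 and 13 to 52 for PRPF8. In all, 369 genes had 1 such intron, 51 had 2 and 10 had 3 or more.

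Introns with SF3B4 alone in all samples were led by snoRNA hosts. RPL7A intron 2 (508 nt, SNORD24) had 806, 995 and 477 SF3B4 reads, RPL4 intron 3 (SNORD16) 319, 425 and 177, and NOP56 intron 9 (SNORD56) 103, 397 and 141, none with a listed PRPF8 peak at the 5′ splice site. RPL4 intron 3 is also one of the introns with a U12-type start. In these 3 the SF3B4 peaks were centred 80 to 100 nt before the 3′ splice site. CEP295 intron 19, with 91, 191 and 110 reads, holds 2 annotated small RNA genes. MYL6 intron 6, in the gene of a non-muscle and smooth muscle myosin light chain, held none and had 63, 116 and 33 SF3B4 reads at -51, -48 and -56 nt. Against the complement control 1 of these 5 introns kept its class in all samples, and with windows of 50 nt none did.

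Introns with PRPF8 alone in all samples were led by RPL13A intron 5 (SNORD34), with 368, 611 and 685 PRPF8 reads. It lies next to RPL13A intron 4, which had both peaks, and in RPL7A intron 4 (SNORD36B) PRPF8 alone had 97, 133 and 125 reads while intron 2 had SF3B4 alone. RANBP1 intron 5 (SNORA77B) had 174, 141 and 218. GATA1 intron 5, in the gene of an erythroid transcription factor, had 158, 159 and 143 PRPF8 reads at 26, 32 and 16 nt into the intron. HMGN1 intron 1, in the gene of a nucleosome-binding protein, had 111, 70 and 164. Neither GATA1 intron 5 nor HMGN1 intron 1 holds an annotated small RNA. The PRPF8 peaks of the 3 snoRNA-holding introns were centred 85, 86 and 76 nt into RPL13A intron 5, 92, 83 and 79 nt into RPL7A intron 4 and 91, 77 and 87 nt into RANBP1 intron 5. With windows of 50 nt 2 of these 5 introns kept their class in all samples. Against the complement control none of these 5 introns kept its class in all samples.

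Introns that hold a snoRNA or small Cajal body RNA were marked by both proteins at percentages above those of all eligible introns. Of 236, 236 and 234 eligible ones, SF3B4 marked 22.5%, 26.3% and 19.2%, PRPF8 46.6%, 42.4% and 56.0%, and both 14.4%, 13.6% and 15.0%. For introns with any small RNA the shares with both were 3.93%, 5.14% and 5.19%. In the 352 introns of the cytoplasmic ribosomal protein genes, which host many snoRNAs and are among the most expressed, SF3B4 marked 18.8%, 21.9% and 22.2%, PRPF8 55.4%, 52.8% and 66.8%, and both 10.2%, 12.5% and 16.2%. RPL37 intron 3 (SNORD72) had 70, 127 and 62 SF3B4 and 30, 39 and 40 PRPF8 reads, and RPL10 intron 3 had 23, 32 and 18 and 20, 37 and 66. EIF4A2 intron 9 (SNORA4) had 59, 112 and 74 SF3B4 and 28, 48 and 47 PRPF8 reads. Without all small-RNA introns the odds ratio was 0.90, as with them.

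The transcripts that encode the complexes of SF3B4 and PRPF8 were looked at as lists. In the SF3b genes, PRPF8 marked 26, 24 and 31 of 81 introns and SF3B4 5, 7 and 6, with both on 3, 6 and 3. Only SF3B3 intron 6 (SNORD111) had both in all samples, with 5, 11 and 4 SF3B4 and 4, 6 and 5 PRPF8 reads. In genes of SF3a, U2AF and branch point factors, both were present on 5, 4 and 9 introns of 73, 80 and 73, and SF3A3 intron 12 was the only one in all samples, with 4, 14 and 4 and 8, 6 and 13 reads. In genes of the U5 snRNP and tri-snRNP, PRPF8 marked 48, 42 and 65 of 207, 205 and 207 introns and SF3B4 4, 17 and 7. Both were present on 0, 9 and 2, and on none in all samples. The share with both was 3.70%, 7.41% and 3.70% for the SF3b genes and 6.85%, 5.00% and 12.3% for the SF3a group, above that of all eligible introns in each sample, and 0%, 4.39% and 0.966% for the U5 group, above it in sample 2 alone. PRPF8 marked 32.1%, 29.6% and 38.3% of introns in the SF3b genes, 32.9%, 20% and 49.3% in the SF3a group and 23.2%, 20.5% and 31.4% in the U5 group, against 18.8%, 17.1% and 23% of all eligible introns. The counts with both are of a few introns at low reads.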

How the data were processed

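Peak lists of SF3B4 and PRPF8 from the 3 K562 10-antibody ABC samples were analysed, and those of the other 8 proteins gave the label permutation. Per the labels, the authors trimmed reads with cutadapt 2.8 and mapped them with STAR 2.7.6 to GRCh38, and per the methods peaks were called by CLIPper and merged. The deposited values used were peak positions, the −log10 of the enrichment p-value (capped at 400) and the log2 fold over an external background. A chi-squared value against the other 9 barcodes of the pool (complement control, CC) was used too. For sample 3 the authors deposited CC enrichment itself. For samples 1 and 2 it was solved from the chi-squared value, a procedure that, applied to sample 3, gave back 5219 of 5219 SF3B4 and 9768 of 9772 PRPF8 peaks. Reads per peak came from peak names, or in sample 2 and HEK293T from the smallest whole numbers that give the folds. A peak with more than 1 background read can there be given too few reads.

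A peak was assigned to a splice site when its centre lay in the intron within 100 nt, and introns under 200 nt were split at their middle. Introns came from the MANE Select or Ensembl canonical transcript of 20033 protein-coding genes (GENCODE 44, whereas the authors used release 35). Marks were compared within genes by Mantel-Haenszel odds ratios. Tests were exact sign flips over samples and exact permutations of the 2 labels among the 10 proteins, drawn anew within each sample (up to 729000 choices). Benjamini-Hochberg adjustment ran over the label permutation p-values of the 9 measures. A pair needed at least 20 introns in each class. Nothing says that the samples came from separate cultures, so p-values of sign flips and of the 20 splits measure only the spread between these samples. Label permutation p-values place the pair among the other protein pairs and do not measure that spread. The same antibodies recur in every sample, so a small label permutation p counts repeats of 1 pair as independent. Intervals cover counting error only. Introns with both peaks were named by the mean of the lower log2 fold, the 10 highest at 1 per gene, the 5 highest for each protein alone, the 5 genes with most such introns, and up to 4 per gene list. The members, measures and lists were chosen with earlier results of these data known. The scripts were tested on simulated data. Python 3.11.15, numpy 2.4.6, pandas 2.3.3 and scipy 1.17.1 were used.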

Additional observations from a re-analysis of the deposited data

How the results depend on the processing

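The difference in the share of splice site peaks at the 3′ end stayed past the threshold in every alternative run, from 60.3 to 96.6 percentage points, and between 79.9 and 85.1 with 1 sample left out. Its p has the limits given with the main result. Co-occurrence across the intron stayed above 0 and short of the threshold in every alternative (log2 odds ratio 0.66 to 1.15, and 0.77 to 0.97 with 1 sample left out), as did its excess over that across the exon (0.56 to 1.11, and 0.73 to 0.92 with 1 sample left out). Against the complement control only 3 of 90 pairs had a value, so its p there says little.

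The number of introns with both peaks moved by over 1.5 times with several choices. It was 1319 with P below 1e-05 and fold above 16, 4167 with all merged peaks, 4183 with all CLIPper peaks, 756 against the complement control, 4178 with windows on both sides of the splice site, 1709 with equal numbers of peaks and 1448 in HEK293T. SF3B4 introns fell to 2949 under the strict limits. PRPF8 introns fell to 12593 under them, to 8469 against the complement control, to 7919 with equal numbers of peaks and to 13648 in HEK293T. With 1 sample left out the number with both lay between 2394 and 3337, with SF3B4 between 5002 and 7012 and with PRPF8 between 19190 and 22680, the share of PRPF8 introns with SF3B4 between 10.2% and 15.6% and of SF3B4 introns with PRPF8 between 45.5% and 47.7%. The share of SF3B4 introns with PRPF8 was 17.5% against the complement control, 19.4% in HEK293T, 28.7% with equal numbers of peaks, 49.3% with all merged and 49.4% with all CLIPper peaks, 55.5% with an overlap of 1 nt, 57.1% with windows on both sides and 49.5% with a limit of 5 reads, which was chosen after seeing the data because the P limit asks for different depths. The share of PRPF8 introns with SF3B4, 13% on average, was 20.8% with equal numbers of peaks and 8.29% against the complement control. With introns of all protein-coding genes as eligible, both peaks were on 1.44%, SF3B4 on 3.07% and PRPF8 on 11.2%. Shares of eligible introns by length, splice site match and gene list also rest on that choice, as do values for all eligible introns. These are not given under the wider choice. The numbers of introns with peaks do not depend on it, since a gene with a marked intron has a listed peak.

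By label permutations drawn anew in each sample, the match to the 5′ splice site passed the threshold under the strict limits (-0.29) and with windows on both sides (-0.22). The match also passed with an overlap of 1 nt (-0.26) and with the limit of 5 reads (-0.31). With 1 sample left out it lay between -0.28 and -0.25, length between -0.29 and -0.09, last introns between -0.659 and -0.311, pyrimidines between 0.134 and 0.441 and GC content between 0.509 and 1.96. Differences short of the threshold changed sign: length against the complement control (0.092) and with equal peaks (0.17), first introns in HEK293T (-3.88 percentage points) and without sample 2 or 3 (range -0.15 to 1.14), last introns against the complement control (0.11), with windows on both sides (0.94), with an overlap of 1 nt (0.13) and in HEK293T (0.20), pyrimidine content in HEK293T (-1.52), and GC content against the complement control (-0.0020) and with equal peaks (-0.42). The cause was not tested.

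Without the pairing by sample (no replicate block), the exact permutation over 20 splits, which cannot go below 0.1, kept the values and gave p from 0.1 to 0.7. They were 81.7 for the share at the 3′ end, -0.20 for length, 0.30 for first introns, -0.54 for last introns, -0.27 for the match, 0.26 for pyrimidines and 1.40 for GC content. No such test over 3 samples could pass 0.05.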
